A study of Mus musculus with 2 samples.

Results

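Neutrophils made up 245 of 21259 cell barcodes in the single-cell RNA sequencing of the mouse rib callus at 4 days post injury (dpi). They were chosen by their measured transcript counts and not by sorting. A barcode was first kept if it had at least 200 genes and less than 10% mitochondrial UMIs (unique molecular identifiers, 1 per captured transcript), which left 19564 cells. Myeloid candidates then had at least 3 UMIs of Tyrobp and Fcer1g, less than 2% of UMIs on Col1a1, Col1a2 and Col3a1, and none of Siglech, Cd3g or Nkg7, which left 5044 cells. Each candidate was scored on 5 sets of 4 marker genes as the mean z-score of ln(1 + UMIs per 10000). The other sets included Ccl8, Mrc1, Fcrls and C1qa, then H2-Eb1, H2-Ab1, Cd74 and Ccr7 (MHC class II), and Acp5, Ctsk, Atp6v0d2 and Mmp9 (osteoclast), and cells highest in these form the other myeloid groups named below. A cell counted as a neutrophil if the set S100a8, S100a9, Ngp and Retnlg was its highest and scored above 0.3. That rule kept 107 cells of the control library and 138 of the Smo cKO library.

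The study examined rib repair after resection of 3 mm of bone in adult mice aged 8 to 12 weeks, and both sexes were used. The control animals were Sox9:CreER;R26:tdTomato;Smo flox/+ and the Smo cKO animals were Sox9:CreER;R26:tdTomato;Smo flox/flox, so every animal carried the Cre driver, the reporter and at least 1 floxed allele. All received 3 tamoxifen injections between day -7 and day -5 relative to the resection. Cells of 3 animals were pooled into 1 library per genotype, which allows no test between genotypes, and the intervals below cover counting error only. Where values are given in pairs, the control library comes first and the Smo cKO library second. As background, Sox9:CreER acts in Sox9-expressing skeletal cells, and it is not a driver for neutrophils.

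Neutrophils are short-lived phagocytes that leave the bone marrow and are among the earliest blood cells to reach an injury. They build their granules in order as they mature: primary granules with myeloperoxidase and elastase in promyelocytes, secondary granules with lactoferrin, cathelicidin and lipocalin in myelocytes, and tertiary granules with gelatinase later. Once in tissue they make chemokines and interleukin-1 family cytokines, and much of their cytosolic protein is the S100a8 and S100a9 heterodimer calprotectin.

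The results below turn on granule genes, among them Ltf of the secondary granule list and the rule marker Ngp, and on chemokine genes. Stretches of sequence upstream of a pair from each group are therefore shown. Each is taken from the 250 bases before the RefSeq transcription start in GRCm38.p6, without bases that lie inside the GENCODE gene, on the plus strand and 5′ to 3′. For Ngp (neutrophilic granule protein, chr9:110419558-110419746) and Ltf (lactoferrin, chr9:111019042-111019270) the capitals mark the letters TTGCNNAA or their reverse complement, a motif of C/EBP factors. For Cxcl2 (chr5:90903649-90903870) and Cxcl3 (chr5:90785851-90786100), ligands of the neutrophil receptor Cxcr2, the capitals mark GGG, any 2 bases and TTTCC, a motif of NF-kB factors.
Ngp: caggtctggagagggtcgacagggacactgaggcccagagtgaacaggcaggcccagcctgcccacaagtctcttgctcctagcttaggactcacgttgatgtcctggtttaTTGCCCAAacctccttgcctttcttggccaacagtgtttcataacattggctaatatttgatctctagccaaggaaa
Ltf: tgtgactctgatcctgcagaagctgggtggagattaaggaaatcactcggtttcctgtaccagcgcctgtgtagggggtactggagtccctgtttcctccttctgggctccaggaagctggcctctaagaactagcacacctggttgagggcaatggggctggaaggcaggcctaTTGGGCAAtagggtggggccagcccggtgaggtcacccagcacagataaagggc
Cxcl2: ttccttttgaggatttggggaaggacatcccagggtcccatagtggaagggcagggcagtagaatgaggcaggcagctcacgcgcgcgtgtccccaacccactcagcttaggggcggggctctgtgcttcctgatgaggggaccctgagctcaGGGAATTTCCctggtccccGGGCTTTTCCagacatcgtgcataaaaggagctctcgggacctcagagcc
Cxcl3: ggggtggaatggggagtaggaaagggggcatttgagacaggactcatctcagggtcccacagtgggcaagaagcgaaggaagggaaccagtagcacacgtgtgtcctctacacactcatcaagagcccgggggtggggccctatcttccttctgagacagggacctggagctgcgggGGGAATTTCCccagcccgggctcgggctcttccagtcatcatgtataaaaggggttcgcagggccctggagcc

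Both strands of the whole 250 bases were searched before every RefSeq start of each gene, and a gene with several starts counted once. The C/EBP letters occurred before 10.8% of 27025 genes, and before 2 of 8 secondary granule genes in the table (Ltf and Lcn2), 2 of 5 tertiary granule genes (Mmp8 and Adam8) and 3 of the 4 rule markers (S100a9, Ngp and Retnlg). The NF-kB letters occurred before 1.65% of genes, and before 3 of 12 inflammatory mediators (Cxcl2, Cxcl3 and, only before a start inside its own gene, Il1rn), 1 of 8 secondary granule genes (Olfm4) and 1 of 5 tertiary granule genes (Pglyrp1). Ngp held the C/EBP letters 138 bases before its RefSeq start and again at 11, which lies inside the GENCODE gene and is not printed, and Ltf held them at 75. Cxcl2 held the NF-kB letters at 97 and 78 bases before its start and Cxcl3 at 73 bases. These matches describe the letters in this window and do not show binding.

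The control library held 105367110 UMIs over 10747 barcodes and the Smo cKO library 112700220 UMIs over 10512 barcodes. Neutrophils held few UMIs per cell in both. Their medians were 1249 and 1590.5 UMIs and 420 and 534.5 genes, while the other cells passing the filters had medians of 8460 and 9258 UMIs. Thinned to 500 UMIs each, neutrophils held medians of 240 and 224.5 genes, so the order of the libraries turned at equal depth. In all, 613 barcode sequences occurred in both libraries, and 1 control and 3 Smo cKO neutrophils were on such barcodes.

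The rule also took in some cells that were poor in calprotectin RNA. S100a8 and S100a9 made up a median of 18.0% of a control neutrophil's UMIs (range 0 to 49.9%) and 26.7% in the Smo cKO (range 0 to 44.9%), and 26 cells in each library were below 5%. Just inside the threshold, the 3 lowest scores were 0.341, 0.398 and 0.407, with 3, 0 and 10 UMIs of S100a8 and S100a9. Just outside it, the 3 highest were 0.299, 0.294 and 0.272, with 3, 4 and 2 UMIs. A further 8 control and 12 Smo cKO candidates scored above 0.3 but had another set higher. Cells with many genes stood apart most. The 8 control and 6 Smo cKO neutrophils with more than 2000 genes carried 37.6% and 25.7% of all neutrophil UMIs, and their median calprotectin share was 0.193% and 3.36%, against 20.4% and 27.7% in the rest. Many values below are therefore also given without them, or in the neutrophils with at least 5% calprotectin UMIs. Both choices were applied to list sums and ranges after the data were seen. No doublet caller was run on the 245 cells, and how much doublets contributed was not tested.

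Markers that the rule did not use went with the label. Camp (the antimicrobial peptide cathelicidin) stood at 10074 and 17568 CPM (UMIs of a gene scaled to a common library total), against 13.1 and 23.0 CPM in all other cells and 2599 and 3317 CPM in the Elane Prtn3 Mpo progenitors described below. Ly6g, the surface antigen that defines mouse neutrophils, was at 115 and 220 CPM, and its UMI count was 0 in the other myeloid groups of both libraries. Cxcr2, the receptor that draws neutrophils toward CXC chemokines, was at 98.3 and 109 CPM against 0.308 and 0.154 CPM in other cells. Wfdc21 reached 3348 and 5856 CPM, against 1127 and 802 CPM in those progenitors, and Mmp8 (neutrophil collagenase) 274 and 484 CPM. All 20 markers outside the rule were detected in both libraries. At a thinned depth of 500 UMIs, Ly6g was seen in 8.41% of control and 10.1% of Smo cKO neutrophils, and in 0 of 1000 connective cells of each library, which limits only the cells with a UMI at that depth, to 0.368% (exact Clopper-Pearson). Unthinned, the shares were 18.7% and 33.3% of neutrophils and again 0 of 1000 connective cells. These contrasts with other cells describe what the rule selected and were not tested.

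Markers of other cell types were given the same count. Of the 7 eosinophil genes 4 were at 0 (Epx, Prg2, Ear1 and Il5ra), and the list summed to 3 and 2 UMIs. The basophil and mast cell list summed to 1 and 2 UMIs and the T and NK list to 3 and 5. The T and NK list includes Cd3g and Nkg7, of which the rule allowed no UMI, so part of that count was fixed beforehand. Cd79a and Cd79b of the B lineage gave 0 and 3 UMIs together, while Ebf1, which connective cells also make, gave 22 and 21. The 10 macrophage genes were all detected and summed to 1244 and 1576 CPM, led by Apoe (731 and 1042 CPM), with 32.9% of the Smo cKO Apoe UMIs in 1 cell. In neutrophils with at least 5% calprotectin UMIs the macrophage sum was 328 and 1116 CPM, a log2 ratio of 1.77 (1.27 to 2.30), against 0.34 in all neutrophils. Over all neutrophils 7 of the macrophage genes were compared and 1, C1qa, was at least 2-fold higher, against 5.63% of all genes. C1qa, itself in a marker set of the rule, was at 64.1 and 166 CPM over 6 and 10 cells. The 8 dendritic genes summed to 723 and 346 CPM, led by Cd74 (483 and 237 CPM over 13 and 11 cells), and Flt3, Xcr1, Clec9a and Cd209a were at 0. Cd74 and H2-Ab1, the 2 genes compared, were both past 2-fold lower (10.8% of all genes, as given below), with over 50% of their UMIs in 1 cell in each library. Both belong to the MHC class II set of the rule, which had to score below the neutrophil set, so their levels were limited beforehand. The osteoclast list, which includes Acp5, Ctsk and Atp6v0d2 of the rule, gave 33 and 39 UMIs. The muscle list gave 11 and 17 and the endothelial list 1 and 26, of which 13 were Cldn5 in 3 Smo cKO cells. The 6 connective genes summed to 8752 and 5456 CPM, against 34659 and 29557 CPM in other cells. The rule kept only cells with less than 2% of UMIs on Col1a1, Col1a2 and Col3a1, so part of this gap was fixed beforehand. Without the cells over 2000 genes the connective sums in neutrophils were 3124 and 3003 CPM. At 5% calprotectin or more the order turned, to 2942 and 3598 CPM. The part of such RNA in the differences below was not tested beyond these values.

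**Figure D1:**
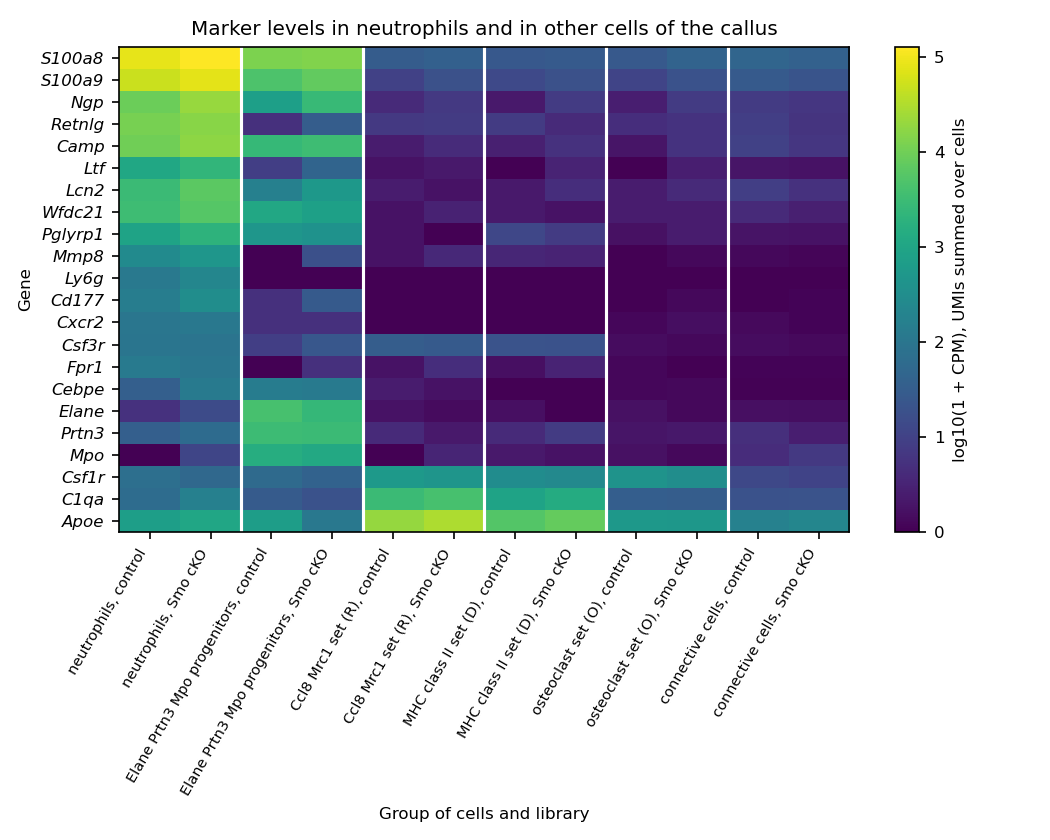
Each tile gives the log10 of 1 plus CPM for 1 gene (rows) in 1 group of cells and library (columns), from UMIs summed over cells. Rule markers and granule genes are brightest in neutrophils and, for S100a8, S100a9, Camp and Ngp, next in progenitors, Elane, Prtn3 and Mpo in progenitors, and Apoe in the Ccl8 Mrc1 and MHC class II groups.

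Neutrophils were 107 of 10057 filtered control cells, or 1.06% (exact 95% interval 0.873 to 1.28%), and 138 of 9507 Smo cKO cells, or 1.45% (1.22 to 1.71%). The difference was 0.388 percentage points, with a Newcombe interval of 0.0754 to 0.706. Among myeloid candidates the shares were 4.51% and 5.16%, and there the interval of the difference ran from -0.552 to 1.83 points. Dissociation and pooling of 1 sample per genotype set these shares as well, and their part cannot be told apart from genotype.

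The 10 most abundant genes, apart from mitochondrial and ribosomal protein genes, took 24.0% of control and 32.1% of Smo cKO neutrophil UMIs. S100a8 reached 82308 and 127529 CPM, and S100a9 48722 and 77536 CPM. Fth1 and Ftl1, the ferritin chains that store iron, followed at 27382 and 16667 CPM and at 12943 and 7989 CPM. Tmsb4x and Actb, which control and form actin filaments, were at 15256 and 19807 CPM and at 8881 and 5309 CPM. Ngp, Camp, Retnlg and the nuclear RNA Malat1 made up the remainder. The ferritins and Actb were lower in the Smo cKO, by log2 ratios of -0.72, -0.70 and -0.74. For Actb, 17.9% of the control UMIs lay in 1 cell, and in neutrophils with at least 5% calprotectin UMIs its log2 ratio was -0.02.

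To compare the genotypes, UMIs were summed over the neutrophils of each library, giving 233877 and 367492 UMIs. A gene was compared if it reached 50 CPM in either library, and was counted if the libraries differed at least 2-fold. Of 2362 genes, 133 (5.63%) were at least 2-fold higher in the Smo cKO and 254 (10.8%) at least 2-fold lower. The exact interval of the ratio excluded 0 on the log2 scale for 100 of the higher and 188 of the lower genes. The median gene sat at a log2 ratio of -0.21, and after division by it the counts were 197 higher and 162 lower. The 4 rule markers filled 15.1% of control and 24.2% of Smo cKO UMIs, which lowers every other gene's CPM. With those markers left out of the total, 254 genes were higher and 251 lower.

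Several secondary granule genes were higher in the Smo cKO library. Of 9 listed genes 8 were compared, 5 were at least 2-fold higher and none was lower, against 5.63% and 10.8% of all genes. Their median log2 ratio was 1.01. Lcn2, which binds bacterial siderophores, was at 2993 and 6506 CPM, a log2 ratio of 1.12 (exact 95% interval 1.00 to 1.24). Ltf, the iron-binding lactoferrin, was at 1082 and 2278 CPM (1.07, 0.87 to 1.28). Cd177, a surface glycoprotein of neutrophils, was at 145 and 310 CPM (1.09, 0.53 to 1.69). Ifitm6 and Hp (haptoglobin, which binds free hemoglobin) were the other genes past 2-fold, at 1065 and 2152 CPM and at 513 and 1034 CPM. Camp differed by 0.80 and Chil3 by 0.55, and Olfm4 was about level at 68.4 and 62.6 CPM. Of the rule markers Ngp differed most, at 9236 and 21247 CPM, while the log2 ratio was 0.63 for S100a8, 0.67 for S100a9 and 0.49 for Retnlg. At 5% calprotectin or more, a choice that itself uses S100a8 and S100a9, these were 0.03, 0.08 and -0.11, and Ngp was at 0.60.

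The size of this difference depended on which cells were counted. Summed over the list, secondary granule genes reached 16718 and 31059 CPM, a log2 ratio of 0.89 (0.84 to 0.95). Without cells over 2000 genes it was 0.58 (0.53 to 0.63), and in the 81 and 112 neutrophils with at least 5% calprotectin UMIs it was 0.30 (0.24 to 0.35). In those last cells none of the 5 genes was past 2-fold, with log2 ratios from 0.38 for Ifitm6 to 0.56 for Cd177. Lcn2 and Ltf passed 2-fold under 8 of 14 alternatives and Cd177, Hp and Ifitm6 under 7. Of the 20 markers outside the rule, which include several granule genes, 5 were at least 2-fold higher and Slpi was lower, against 5.63% and 10.8% of all genes. Ltf, Lcn2, Cd177 and Pglyrp1 of these 5 were short of 2-fold at 5% calprotectin or more, and Lrg1 was at 1.38.

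Tertiary granule genes gave a mixed count. Pglyrp1, a peptidoglycan-binding protein, was at 932 and 1992 CPM (log2 ratio 1.10, 0.88 to 1.32) and was the 1 higher gene of 5 compared, against 5.63% of all genes. At 5% calprotectin or more it was at 0.50, short of 2-fold, and the sum of the list went from 0.83 to 0.31. Mmp8 differed by 0.82 and Mmp9 (gelatinase B) by 0.54. Slc11a1, a metal transporter of phagosomes, was lower on 13 and 7 UMIs, with a ratio of -0.48 among cells with at least 500 genes.

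Primary granule genes were nearly absent, with 10 and 42 UMIs over the list. That sum was 42.8 and 114 CPM, a log2 ratio of 1.42 (0.40 to 2.58). At 5% calprotectin or more it was 0.97, and the interval included 0 (-0.09 to 2.19). Ms4a3 of this list had 0 and 10 UMIs. Mpo (myeloperoxidase) had 0 and 4 UMIs, Elane (neutrophil elastase) 1 and 5, and Prtn3 (proteinase 3) 8 and 22, with all 8 control UMIs in 1 cell. In the 37 control and 41 Smo cKO progenitors, defined by at least 3 UMIs of these 3 genes, Elane was at 4148 and 2476 CPM. Fcnb, a ficolin of immature granulocytes, was at 17.1 and 128 CPM over 4 and 12 neutrophils. Cebpe, the transcription factor required for secondary granules, was at 34.2 and 125 CPM (log2 ratio 1.87, 0.77 to 3.17) over 6 and 21 cells. It was the 1 higher gene among 6 granulopoiesis factors compared, Cebpb was the 1 lower (5.63% and 10.8% of all genes), and Mxd1, the most abundant, was at 410 and 512 CPM. Cell cycle genes were compared for 7 of 10, with Rrm2 (a ribonucleotide reductase subunit) higher on 7 and 37 UMIs and Ccnb2 (cyclin B2) lower on 14 and 7, against 5.63% and 10.8% of all genes. Ccnb2 turned to a log2 ratio of 1.14 without the cells over 2000 genes. The cycle list summed to 432 and 656 CPM, and without those cells to 144 and 502 CPM. At 5% calprotectin or more it was at 177 and 575 CPM.

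**Figure D2:**
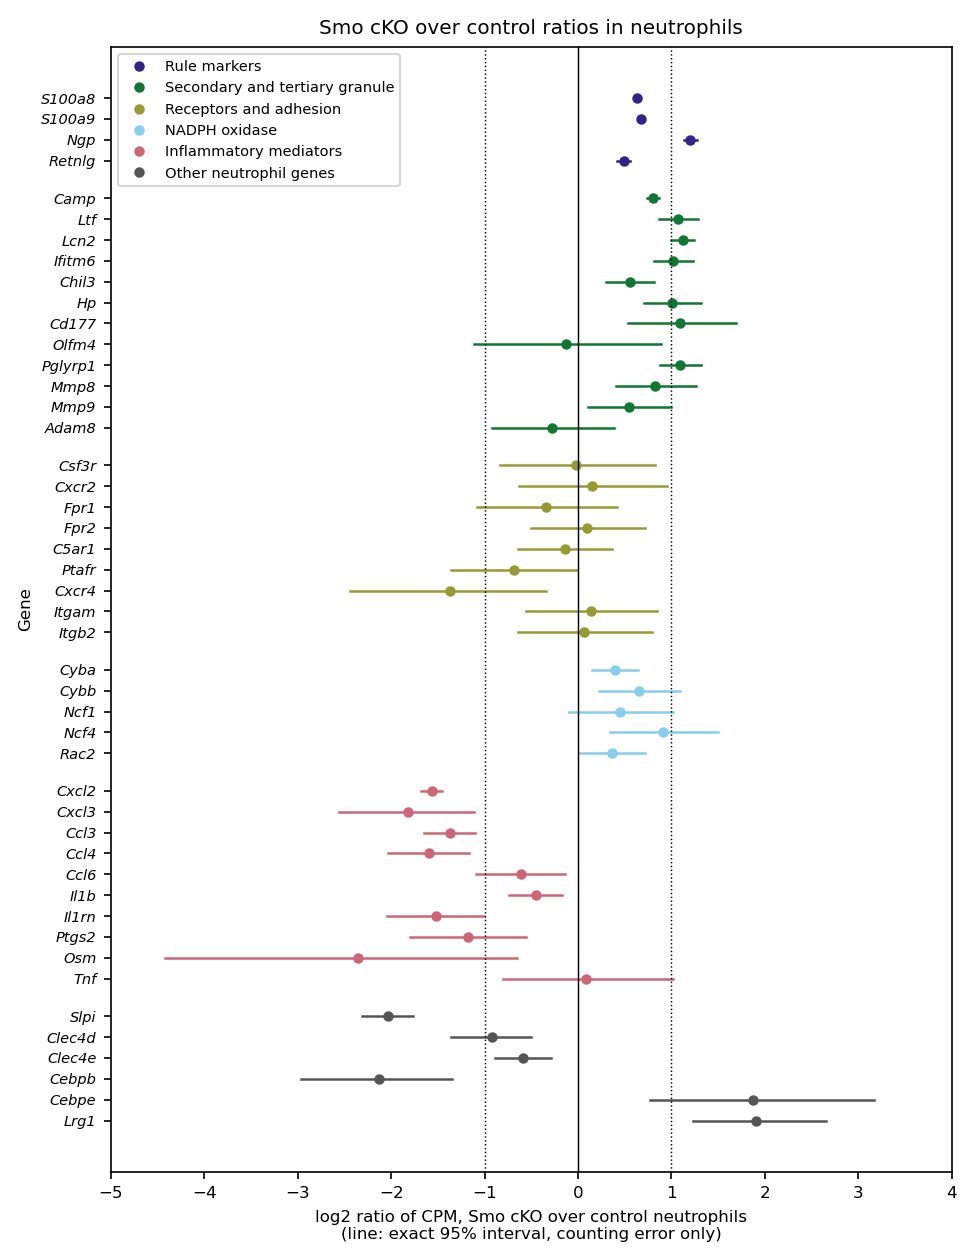
Points give the log2 ratio of CPM, Smo cKO over control, for genes of the lists in neutrophils, with lines for the exact 95% interval of counting error and dotted lines at 2-fold. Granule genes lie mostly right of 0 (Lcn2 1.12, Ltf 1.07), receptors on both sides of it (Csf3r -0.02), and chemokines left of it (Cxcl2 -1.57, Ccl3 -1.37).

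Many inflammatory mediators were lower in the Smo cKO library. Of 14 listed genes 12 were compared, 7 were at least 2-fold lower and none was higher, against 10.8% and 5.63% of all genes, and the median log2 ratio was -1.27 against -0.21 over all genes. Cxcl2 reached 8013 CPM in control neutrophils and 2705 CPM in Smo cKO neutrophils, a log2 ratio of -1.57 (-1.68 to -1.46). The 4 cells of each library with the most Cxcl2, Ccl3 and Ccl4 UMIs held 50.7% and 32.0% of its Cxcl2 UMIs. Without these cells, an alternative chosen after the data were seen, Cxcl2 was at 4107 and 1857 CPM (-1.14), Ccl3 at 912 and 308 CPM (-1.57) and Ccl4 at 374 and 168 CPM (-1.16), and the whole mediator list at 7279 and 3564 CPM (-1.03, -1.14 to -0.92). Its neighbor on chromosome 5, Cxcl3, was at 239 and 68.0 CPM (-1.82, -2.56 to -1.11), but 41.1% of the control UMIs came from 1 of 11 cells and the ratio was -0.03 at a score threshold of 0. Ccl3, which draws monocytes through the receptor Ccr1, was at 1274 and 492 CPM (-1.37, -1.65 to -1.10). Ccl4, the adjacent gene on chromosome 11, was at 569 and 188 CPM (-1.60, -2.04 to -1.17), and its ratio was -0.36 among cells with at least 500 genes. Il1rn, the antagonist of the interleukin-1 receptor, was at 389 and 136 CPM (-1.52), each over 32 cells, and its ratio was -0.84 with cells weighted equally.

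Ptgs2, the inducible prostaglandin synthase, and Osm, a cytokine of the interleukin-6 family, were also past 2-fold, on 56 and 39 UMIs and on 13 and 4, and at a score threshold of 0 the Ptgs2 ratio was -0.44. Il1b was at 834 and 610 CPM (-0.45) and Ccl6 at 321 and 210 CPM (-0.61), short of 2-fold. Tnf was at 77.0 and 81.6 CPM. Summed, the list came to 12186 and 4767 CPM (-1.35, -1.44 to -1.27). It stayed lower without the cells over 2000 genes, at 18664 and 6036 CPM (-1.63), and in the neutrophils with at least 5% calprotectin UMIs, at 15092 and 4166 CPM (-1.86).

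Other genes with a large difference in this direction included Slpi and Cebpb. Slpi, a secreted inhibitor of neutrophil elastase, stood at 1706 and 416 CPM (log2 ratio -2.03, -2.31 to -1.76). It was seen in 78 control and 51 Smo cKO cells, 39.2% of the Smo cKO UMIs lay in 1 cell, and among cells with at least 500 genes the ratio was -0.76. Cebpb, the C/EBP factor of emergency granulopoiesis, was at 227 and 51.7 CPM (-2.13, -2.97 to -1.35) over 39 and 16 cells. At 500 UMIs per cell, Slpi was seen in 45.8% of control (36.1 to 55.7%) and 18.8% of Smo cKO neutrophils (12.7 to 26.4%), and Ccl3 in 37.4% (28.2 to 47.3%) and 19.6% (13.3 to 27.2%). Of 1000 thinned connective cells in each library, 11 and 4 had Slpi and 3 and 2 had Ccl3, although their median depth was 10533 and 12560.5 UMIs before thinning. Unthinned, Slpi was seen in 72.9% and 37.0% and Ccl3 in 44.9% and 26.8% of neutrophils. Cxcl2, in contrast, was seen in 57.9% and 51.4% of thinned neutrophils, with overlapping intervals (48.0 to 67.4% and 42.8 to 60.0%), and in 70.1% and 68.8% unthinned. Connective cells gave 16.7% and 19.9% for Cxcl2, a gene that they and macrophages also express.

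In the Ccl8 Mrc1 and MHC class II groups of the same libraries the chemokine levels lay in the opposite order, while the Elane Prtn3 Mpo progenitors held 662 and 613 CPM of Cxcl2 and 32.1 and 152 CPM of Ccl3. Cxcl2 was at 2122 and 3742 CPM in the MHC class II group and at 3017 and 3252 CPM in the Ccl8 Mrc1 group, in each case higher in the Smo cKO. Ccl3 was likewise higher there in both of these groups, at 258 and 330 and at 546 and 650 CPM. Slpi was at 144 and 181 CPM in the MHC class II group. Il1rn was at 205 and 341 CPM there and, in contrast, at 187 and 173 CPM in the Ccl8 Mrc1 group. In the control library neutrophils held more Cxcl2 and Ccl3 than the Ccl8 Mrc1, MHC class II and osteoclast groups, and in the Smo cKO the MHC class II and Ccl8 Mrc1 groups held more Cxcl2 than neutrophils, and the latter also more Ccl3. With 1 library per genotype, the difference between groups was not tested.

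**Figure D3:**
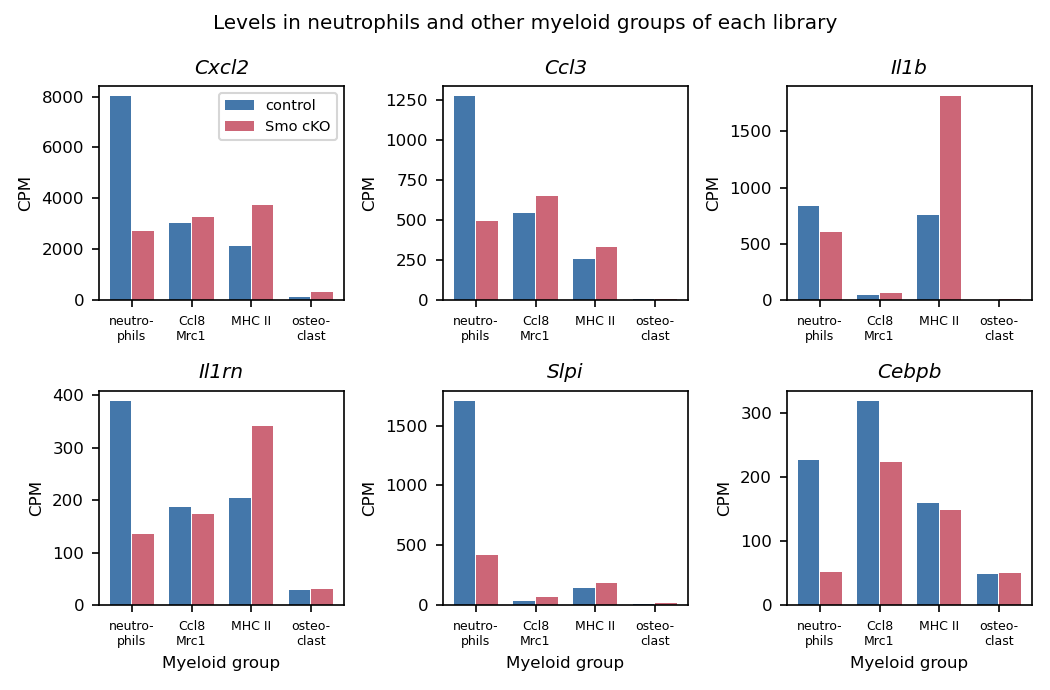
Bars give CPM of 6 genes (separate linear axes from 0) in neutrophils and the other myeloid groups of the control (blue) and Smo cKO (red) library, 1 library each. Cxcl2, Ccl3, Il1rn and Slpi are lower in Smo cKO neutrophils, while Cxcl2 and Ccl3 are higher in Smo cKO cells of the Ccl8 Mrc1 and MHC class II groups.

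Of 10 chemoattractant and growth factor receptors none was at least 2-fold higher and 1 was lower, close to the 10.8% of all genes that were lower. Csf3r, the receptor of the cytokine that drives neutrophil output, was at 94.1 and 92.5 CPM (log2 ratio -0.02, -0.84 to 0.82). The formyl peptide receptors Fpr1 and Fpr2 were at 124 and 98.0 CPM and at 162 and 174 CPM, and C5ar1, the complement C5a receptor, at 252 and 229 CPM. Ltb4r1, a leukotriene receptor, differed by 0.98 and Ptafr, the platelet-activating factor receptor, by -0.69. Cxcr4, which holds neutrophils in marrow, was the lower gene at 98.3 and 38.1 CPM on 23 and 14 UMIs, and its log2 ratio went from -1.37 to -0.38 among cells with at least 500 genes. The receptor list summed to 1291 and 1173 CPM (-0.14, -0.35 to 0.08), but without the cells over 2000 genes the log2 ratio was -0.39 (-0.61 to -0.16) and at 5% calprotectin or more -0.54 (-0.79 to -0.29). The integrin chains Itgam and Itgb2 were at 124 and 136 CPM and at 120 and 125 CPM, and the hyaluronan receptor Cd44, the most abundant of the 6 adhesion genes compared, at 564 and 324 CPM. Most of these genes rest on few UMIs, 22 and 34 for Csf3r, and smaller differences were not detectable at this depth.

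The 6 genes of the NADPH oxidase, which makes superoxide in phagosomes, were each higher in the Smo cKO without reaching 2-fold, with the highest log2 ratio, 0.91, for Ncf4. Their sum differed by 0.47, but at 5% calprotectin or more it was level, at 3359 and 3405 CPM (0.02, -0.15 to 0.20). Cyba was the most abundant at 885 and 1165 CPM. Among 8 compared pattern recognition and Fc receptors, Fcgr2b was lower on 14 and 8 UMIs and none was higher, against 10.8% and 5.63% of all genes. Among cells with at least 500 genes the log2 ratio of Fcgr2b turned from -1.46 to 0.036. The sum of the list differed by -0.15, and by -0.54 at 5% calprotectin or more. Cd14 was at 534 and 716 CPM, while the C-type lectins Clec4d and Clec4e were at 445 and 234 CPM and at 774 and 514 CPM.

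Neutrophils within a library differed in secondary granule RNA and in chemokine RNA. At 500 UMIs per cell, 23 control and 49 Smo cKO cells had at least 5 UMIs of Camp and Ltf, and 33 and 26 had at least 5 UMIs of Cxcl2, Ccl3 and Ccl4. Only 1 cell of each library had both. Some cells held at least 1 UMI of each kind, 15 and 18 in the respective libraries. Shares of a cell's UMIs compete with each other by construction, and the part of this was not tested.

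**Figure D4:**
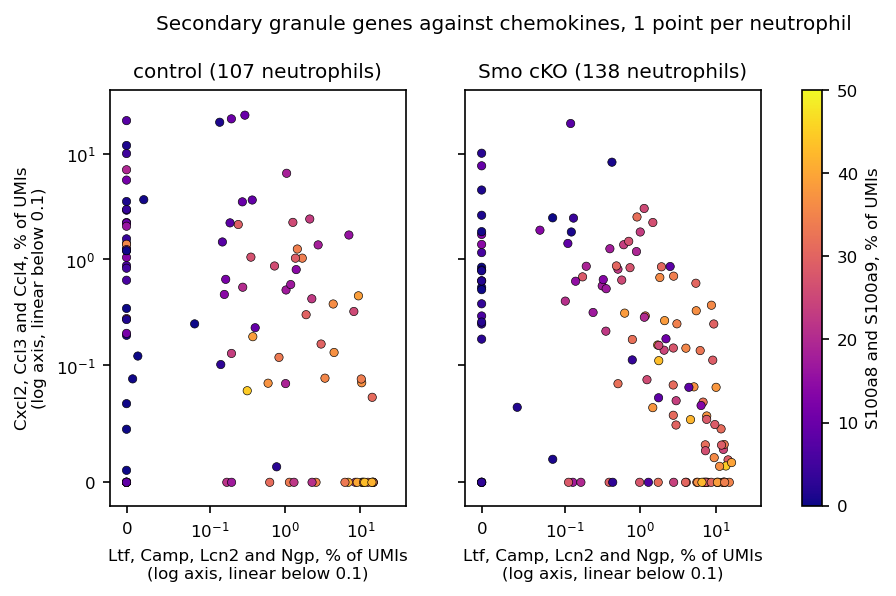
Each point is 1 neutrophil, placed by the share of its UMIs on Ltf, Camp, Lcn2 and Ngp (x) and on Cxcl2, Ccl3 and Ccl4 (y, both log axes, linear below 0.1%), colored by its calprotectin share, with the control left and the Smo cKO right. Few cells lie at the upper right, and the Smo cKO panel holds more points at the lower right.

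The neutrophils were divided by the share of UMIs on Ltf, Camp, Lcn2 and Ngp into cells with no such UMI and cells in a lower and an upper range, split at the median of 1.90% of UMIs. These are ranges of a measured share and not types, and 15 cells lay within 20% of that value. In the control 38 cells had no UMI, 40 were in the lower and 29 in the upper range. In the Smo cKO the numbers were 25, 51 and 62. The upper range thus held 27.1% of control neutrophils (19.0 to 36.6%) and 44.9% of Smo cKO neutrophils (36.5 to 53.6%), and the cells with no UMI 35.5% (26.5 to 45.4%) and 18.1% (12.1 to 25.6%). With Ngp, a gene of the rule, left out, the upper range held 25.2% and 44.2%. In the neutrophils with at least 5% calprotectin UMIs it held 35.8% (25.4 to 47.2%) and 55.4% (45.7 to 64.8%). There the cells with no UMI were 23.5% (14.8 to 34.2%) and 6.25% (2.55 to 12.5%). Depth moved with the range, from medians of 797.5 and 802 UMIs in cells without a UMI to 1686 and 2474.5 in the upper range. At equal depth of 500 UMIs, Camp was seen in 29.9% of control (21.4 to 39.5%) and 48.6% of Smo cKO neutrophils (40.0 to 57.2%), and Lcn2 in 52.3% (42.5 to 62.1%) and 74.6% (66.5 to 81.7%). Unthinned, the shares were 32.7% and 52.9% for Camp and 61.7% and 79.7% for Lcn2. Of 1000 thinned connective cells in each library, 3 and 2 had Camp and 3 and 0 had Lcn2.

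Genes that the split did not use differed along it. Mmp8 was at 46.1 and 65.6 CPM in cells with no UMI of Ltf, Camp, Lcn2 and Ngp. In the upper range it was at 557 and 512 CPM. Cd177 had 1 and 0 UMIs in the cells with no such UMI and 465 and 502 CPM in the upper range. For Cebpe, 8 of 8 control and 45 of 46 Smo cKO UMIs lay in the upper range. Il1b ran the other way, from 1026 and 1903 CPM to 130 and 50.7 CPM. Of the cells with no such UMI, only 19 of 38 control and 7 of 25 Smo cKO cells held at least 5% calprotectin UMIs. Mmp8, Cd177, Cebpe and Il1b were not followed along the ranges in such cells alone. Within the upper range, which is set by 4 of these genes, Camp was at 43002 and 32032 CPM (log2 ratio -0.42) and Chil3 at 2806 and 2042 CPM (-0.46), while Ltf was at 4423 and 4114 CPM and Lcn2 at 10128 and 10471 CPM.

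Mediators differed between the libraries within ranges as well. In the upper range the mediator list summed to 2750 and 1307 CPM, and in the lower range to 18432 and 7427 CPM. The 4 control cells with the most Cxcl2, Ccl3 and Ccl4 UMIs held 42.6% of the control mediator UMIs, and all lay in the lower range. The 4 such Smo cKO cells held 26.0% and lay in the lower range or had no UMI of the 4 genes. Sums per range were not recomputed without these cells, so the size of the lower-range difference rests in part on them. In cells with no UMI of Ltf, Camp, Lcn2 and Ngp it was higher in the Smo cKO, at 11320 and 14995 CPM. This order turned without the cells over 2000 genes, where the same range gave 21559 and 14995 CPM. Slpi was lower in the Smo cKO in the lower range (2090 and 365 CPM) and in the upper range (1264 and 172 CPM). In cells with no UMI of Ltf, Camp, Lcn2 and Ngp, Slpi was higher in the Smo cKO (1568 and 2231 CPM). The last order turned as well, to 3086 and 2231 CPM without the cells over 2000 genes and to 5687 and 633 CPM at 5% calprotectin or more.

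**Figure D5:**
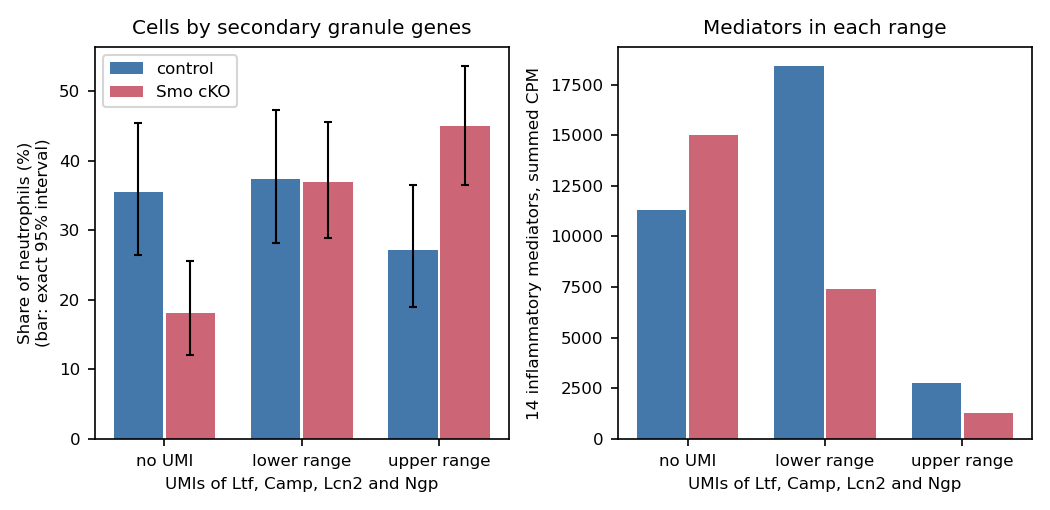
Left, the share of neutrophils (%) with no UMI of Ltf, Camp, Lcn2 and Ngp, or in the lower or upper range of UMI share. Values are given per library with exact 95% intervals. Right, the summed CPM of 14 inflammatory mediators in each range. The upper range holds 27.1% of control and 44.9% of Smo cKO neutrophils, and mediators are lowest there, at 2750 and 1307 CPM.

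Interferon-stimulated genes were mostly too sparse to compare. Only 5 of 25 reached 50 CPM, and 2 of these were at least 2-fold higher in the Smo cKO, against 5.63% of all genes. The sum of the list differed by 0.71, and by 0.40 at 5% calprotectin or more. Isg15, a ubiquitin-like modifier, was at 42.8 and 125 CPM on 10 and 46 UMIs, and Bst2 (tetherin) at 29.9 and 142 CPM on 7 and 52. In all other cells Isg15 was at 14.7 and 166 CPM and Bst2 at 65.2 and 279 CPM. With each cell weighted equally the log2 ratio of Isg15 in neutrophils was 0.34. Ifitm1 and Ifitm3, which restrict virus entry, differed by 0.41 and 0.80.

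Among genes at 100 CPM or more that were at least as abundant in neutrophils as in other cells, the highest ratios went to Fabp4 and Ccl21a (ENSMUSG00000094686). All 68 and 54 Smo cKO UMIs of these lay in 1 cell each. Below them came Fcnb, Lrg1 (89.8 and 337 CPM, log2 ratio 1.91), Cebpe, Mapk13 (1.76), Rrm2, Upp1 (1.67), Ceacam10 (1.63) and Ifi27l2a (1.62). Lrg1, a glycoprotein of neutrophil granules, was seen in 14 control and 66 Smo cKO cells, so its difference was spread over cells.

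The lowest ratios went to Slc39a1 (a zinc transporter, -2.52, but 0.55 at 5% calprotectin or more), Clec4n (the lectin Dectin-2, -2.24), Gdpd3 (-2.15), Cebpb, Slpi, Mpeg1 (a pore-forming protein of phagocytes, -1.92), Hcar2 (the niacin receptor, -1.83), Cxcl3, H2-Eb1 (-1.80) and Selenop (-1.79). Selenop was at -0.26 at 5% calprotectin or more, and Mpeg1 at -0.12 and Hcar2 at -0.006 among cells with at least 500 genes. H2-Eb1, a chain of MHC class II that is itself in a marker set of the rule, rested on 3 control and 2 Smo cKO cells. Gdpd3 was seen in 45 and 21 cells, at 338 and 76.2 CPM.

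Hemoglobin RNA separated the libraries through single cells. The 4 globin genes summed to 7855 and 1309 CPM and were all past 2-fold lower in the Smo cKO, against 10.8% of all genes. A pair of control cells held 45.0% and 16.7% of their UMIs on globins, while the highest Smo cKO cell held 1.08%. Without those control cells the sums were 707 and 1309 CPM, and the order was reversed.

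Smo, the deleted signal transducer of the Hedgehog pathway, gave 1 UMI in control neutrophils and 0 in the Smo cKO, where a count of 0 allows up to 8.16 CPM (3 counts). In other cells it was at 17.3 and 10.7 CPM. The tdTomato reporter gave 0 UMIs in neutrophils of both libraries, which allows up to 12.8 and 8.16 CPM, and was at 0.577 and 1.39 CPM in other cells. The deletion could not be checked in neutrophils at this depth.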

How the data were processed

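Single-cell libraries were prepared from the dissociated 4 dpi callus, 1 per genotype. UMI counts per gene and barcode were deposited by the authors as filtered matrices, made with Cell Ranger 3.0.2 on mm10 (the submitters' processing notes). UMI counts were used as deposited, with no normalization or batch correction. Members, gene lists and alternatives were chosen with earlier results of these data known. Filters and the rule are given with the results, and no upper limit on genes was applied. UMIs were summed over members per library and expressed as CPM. Intervals were exact Poisson for ratios, exact Clopper-Pearson for shares and Newcombe for their difference, at 95%, and cover counting error only; 1 library per genotype allowed no test. Genes named singly were, in 28 gene lists, members of highest CPM or past 2-fold, the 10 highest CPM, and the 10 highest and lowest ratios at 100 CPM or more in a library where members reached the level of other cells, without Xist, Y-linked, mitochondrial, ribosomal, globin and immunoglobulin genes; Smo and tdTomato were added. Clec7a and Aldoa were not in the feature list. Cells were thinned to 500 UMIs with a fixed seed, with 1000 connective cells (collagen UMIs 2% or more) drawn per library; 0 neutrophils were shallower. Gene positions came from GENCODE M21 (GRCm38) and upstream sequences from RefSeq (GRCm38.p6). The ratio count was tested on simulated data. Python 3.11.15, numpy 2.4.6, scipy 1.17.1, pandas 2.3.3 and matplotlib 3.10.9 were used. No paired analysis was possible because each genotype had 1 library. A few listed genes, and 1 myeloid set of the rule, are not reported here.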

Additional observations from a re-analysis of the deposited data

How the results depend on the processing

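The results were recomputed under 16 alternatives, all chosen with earlier results of these data known. Of them 3 were added only after the neutrophil values were seen (barcodes found in both libraries left out, members with at least 5% calprotectin UMIs, and globin-rich members left out). Gene counts with at most 2000 genes were among the alternatives listed earlier, while leaving such cells out of list sums and ranges, and leaving out the 4 cells of each library richest in chemokine UMIs, were added after the data were seen. The share of neutrophils among filtered cells was higher in the Smo cKO library under each alternative that changes the cells, and with at most 2000 genes the difference was 0.973 percentage points. The count of higher genes was 63 at a score threshold of 0, 251 in members with at least 5% calprotectin UMIs, 254 with the 4 rule markers left out of the total, 433 at a floor of 20 CPM, 55 at 100 CPM and 226 with cells weighted equally. The count of lower genes was 89 at a threshold of 0, 162 after division by the median ratio, 821 at 20 CPM and 80 at 100 CPM. The other counts were within 1.5 times of those reported. For 51 named genes, 708 ratios were recomputed, and 5 changed sign. Ccnb2 went to 1.14 with at most 2000 genes and to 0.33 in members with at least 5% calprotectin UMIs, where Retnlg went to -0.11 and Slc39a1 to 0.55. Fcgr2b went to 0.036 with at least 500 genes. The cause was not tested. Cxcl2 ran from -2.05 to -1.01, Ccl3 from -1.97 to -1.06, Slpi from -3.31 to -0.76 and Lcn2 from 0.52 to 1.41. Upp1 (0.66) and Rrm2 (0.89) were short of 2-fold among cells with at least 500 genes, and Ceacam10 (0.95) in members with at least 5% calprotectin UMIs. Fabp4 and Ccl21a had no ratio where the single cells that carry them were left out. No paired analysis was possible because each genotype had 1 library. Genes below 50 CPM rest on few UMIs in these cells of low depth and were not compared.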

Other observations

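Glycolysis and hypoxia genes gave 2 of 11 compared genes at least 2-fold lower in Smo cKO neutrophils and none higher, against 10.8% and 5.63% of all genes. Hk2, a hexokinase, was at 175 and 54.4 CPM (log2 ratio -1.69, -2.54 to -0.88) and Bnip3, a mitophagy receptor, at 128 and 59.9 CPM. Hk2 was at -0.32 with a score threshold of 0, and Bnip3 at -0.41 in neutrophils with at least 5% calprotectin UMIs. Slc2a3, a glucose transporter, was at 145 and 73.5 CPM in neutrophils and at 7.82 and 7.70 CPM in other cells. Gapdh, the most abundant gene of the list, was at 1351 and 1426 CPM.

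Survival genes gave 1 of 8 compared genes at least 2-fold higher, Bcl2a1a on 7 and 26 UMIs, and none lower, against 5.63% and 10.8% of all genes, and the interval of that 1 ratio did not exclude 0. The sum of the list ran the other way, at -0.26, and at -0.76 in neutrophils with at least 5% calprotectin UMIs. Its reads may be split with the near-identical copies Bcl2a1b (128 and 220 CPM) and Bcl2a1d (55.6 and 38.1 CPM), so single values of this family are uncertain. Mcl1, which keeps neutrophils alive, was at 398 and 237 CPM (-0.75, -1.19 to -0.31). Ly6c2, listed with the monocytes, was at 291 and 604 CPM in neutrophils against 5.76 and 8.44 CPM in other cells together and 1444 and 586 CPM in the Elane Prtn3 Mpo progenitors, while Ccr2 gave 4 and 2 UMIs.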
